A study of Mus musculus with 16 samples.

Results

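The effect of sodium acetate on the transcriptome of wild-type (WT) mouse Th17 cells was examined by setting the 4 libraries named WT acetate against the 4 named WT untreated. These 8 of the 16 libraries of the series were chosen by their labels alone, and all 14985 genes tested, of 15571 in the deposited table, were considered. The WT cells carried loxP-flanked alleles of pyruvate dehydrogenase (PDH fl/fl, spelled PHD in some labels) and no Cre by their labels, which do not name the subunit. In both groups naive CD4 T cells, isolated magnetically from spleen and lymph nodes, were differentiated for 3 days on bound anti-CD3 (5 µg/mL) with anti-CD28 (1 µg/mL), IL-6 (30 ng/mL), TGFβ (2 ng/mL) and anti-IFNγ (5 µg/mL). The medium held 2-mercaptoethanol (55 µM). WT acetate cells also received sodium acetate at 10 mM, and WT untreated cells did not. The remaining 8 libraries were from PDH fl/fl CD4-Cre+ knockout (KO) cells, in which the Cd4 promoter drives Cre from the thymic stage onwards, 4 with acetate (KO acetate) and 4 without (KO untreated), and served to ask whether an effect differed between the genotypes. The labels give no sodium control without acetate, so sodium and acetate cannot be told apart. They also do not give the animals or cultures behind the libraries, so that p-values here reflect only how these libraries spread, which may be technical. Neither the age nor the strain background of the mice is given in the labels.

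Acetate is a short-chain acid that cells turn into acetyl-CoA with the synthetases ACSS1, in mitochondria, and ACSS2, in the cytosol and nucleus. PDH makes acetyl-CoA from pyruvate in mitochondria, and ATP citrate lyase (ACLY) releases it again from exported citrate. Acetyl-CoA is the building block of fatty acids and cholesterol and the donor for acetylation of histones. Th17 cells are helper T cells defined by secretion of IL-17A and IL-17F, and they protect barrier tissues and drive several kinds of autoimmune inflammation.

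The WT libraries held 24.57 to 33.72 M estimated counts. Abundance is given throughout as CPM, the count scaled to the TMM-effective library size, and is not corrected for gene length, so levels are compared between libraries and not between genes. The first principal component of the 8 libraries (31.6% of the variance) separated WT acetate (−39.25 to −8.51) from WT untreated (18.08 to 42.08). On the second component (17.1%) WT acetate 1 and 2 (10.87 and 15.66) lay apart from WT acetate 3 and 4 (−34.51 and −22.2), a division that recurs below. WT untreated 1 had 5.889% of its counts on 1 gene without a name in the reference, which took at most 0.975% in the other 7. The 6 T cell marker genes were all detected, at a summed 1305 to 1393 CPM in WT acetate and 1405 to 1455 CPM in WT untreated libraries. The 7 Th17 markers summed to 1264 to 2101 CPM against 715 to 1121 CPM. Of the markers of other cells, B cell genes summed to 5.37 to 7.25 CPM in WT acetate and 3.20 to 5.68 CPM in WT untreated libraries, and 8 of 16 myeloid, 9 of 10 erythroid or platelet and 7 of 11 stromal markers were not among the 15571 genes. The remaining 8 myeloid markers summed to 42.1 to 56.7 CPM and 40.3 to 45.7 CPM, the 1 remaining erythroid or platelet marker stood at 0.455 to 1.01 CPM and 0.372 to 0.882 CPM, and the 4 remaining stromal markers summed to 51.4 to 61.5 CPM and 40.8 to 45.5 CPM, in WT acetate and in WT untreated libraries in that order. Most of the myeloid sum was Cst3, at a mean of 43.8 CPM in WT acetate and 38.2 CPM in WT untreated libraries. Most of the stromal sum was Pdpn (35.9 and 20.4 CPM) and Pecam1 (19.8 and 21.8 CPM). The part of such other cells in the results was not tested. In RNA from whole cultures, fewer cells of a type and less RNA per cell cannot be told apart.

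With acetate, transcripts of IL-17A, IL-17F, IL-2 and some other cytokines, cytotoxic granule proteins and chemokines were higher, and those of vimentin and of a part of the cholesterol synthesis, glycolysis and mitosis genes were lower. In all, 2315 genes (15.4% of those tested) were called at an adjusted p under 0.05 (edgeR, Benjamini-Hochberg adjustment over all genes). Of these, 1183 rose (7.89% of genes tested) and 1132 fell (7.55%). These shares are the background for every list count given below. Sizes were unequal. The median change, as a log2 fold change of WT acetate over WT untreated, was 0.62 among genes that rose and −0.33 among those that fell, and 349 genes (2.33%) rose while 101 (0.674%) fell by over 2-fold. The 4 WT acetate and 4 WT untreated values did not overlap in 3194 genes (21.3%), of which 2030 were called. Scaled to library totals instead of by TMM, which shifted the median of all genes by 0.05, 1754 genes were called, 1196 higher and 558 lower (68.2% higher, against 51.1% with TMM). Without WT acetate 1, the number of genes that fell was 734.

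The shares of genes that rose and fell differed by abundance. Of the 2144 most abundant genes, averaging 100 CPM or more over the 8 libraries, 88 (4.10%) rose and 262 (12.2%) fell. Among 3241 genes between 1 and 10 CPM, 427 (13.2%) rose and 147 (4.54%) fell. Genes between 10 and 100 CPM numbered 6627, of which 517 (7.80%) rose and 663 (10.0%) fell, and of 2973 genes under 1 CPM 151 (5.08%) rose and 60 (2.02%) fell. At every level most genes were not called, and the median log2 fold change was −0.033 at 100 CPM or more. With scaling to library totals 86 genes rose and 105 (4.90%) fell at 100 CPM or more, and between 10 and 100 CPM the balance turned, with 539 higher and 307 lower. Between 1 and 10 CPM 431 rose and 103 fell in that scaling.

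**Figure D1:**
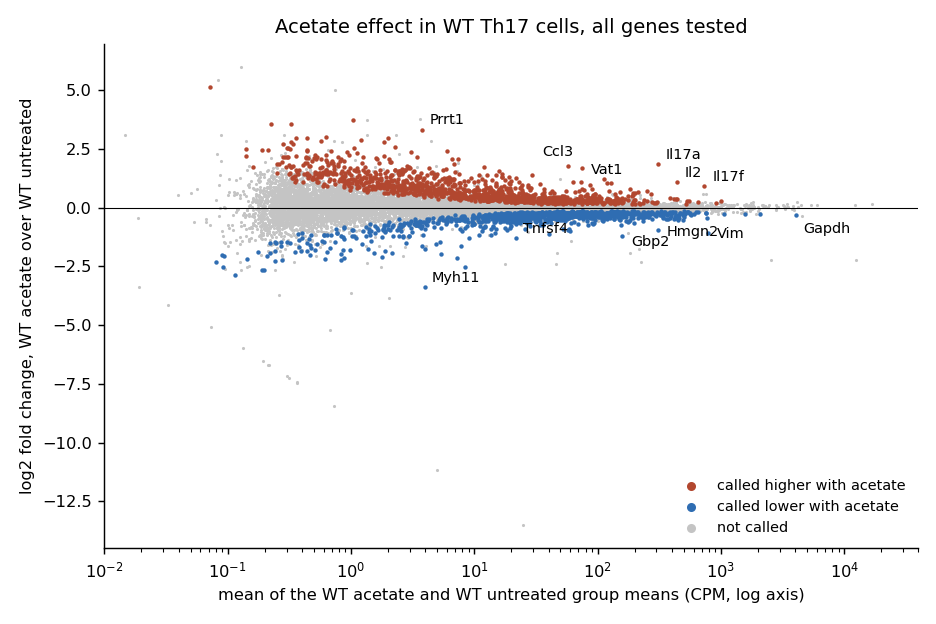
Change with acetate by transcript level in WT Th17 cells. Each point is 1 of the 14985 genes tested, with its level in CPM on a log x axis and the log2 fold change of WT acetate over WT untreated on the y axis; red points (1183) were called higher and blue points (1132) lower, and the red points reach larger changes than the blue ones among scarce genes.

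The steepest rises, among called genes with at least 5 CPM and no overlap between the groups, included genes with little transcript in untreated cells. Prrt1, which encodes a transmembrane protein known from synapses, stood at 7.12, 6.72, 6.46 and 7.29 CPM in the 4 WT acetate libraries, against 0.447, 0.454, 0.793 and 1.05 CPM in the 4 WT untreated libraries (log2 fold change 3.32, SE 0.258, adjusted p = 3.92e-07). Ccn4, a secreted matricellular protein gene first known as a Wnt target, was at 17.2, 12.3, 3.42 and 7.80 CPM with acetate and 1.48, 2.03, 1.85 and 2.20 CPM without it. Its WT acetate values spread widely, with libraries 1 and 2 above 3 and 4, although the lowest of them exceeded every untreated value. Rcn3 (a calcium-binding protein of the endoplasmic reticulum), Pde4a (a cAMP phosphodiesterase), Rcor2 (a CoREST corepressor), Rab34 (a small GTPase) and Fbxo2 (a ubiquitin ligase subunit that binds glycoproteins) rose by log2 fold changes of 2.35, 2.14, 2.05, 1.86 and 1.59. Pdlim4, an actin-associated PDZ and LIM protein gene, and Zfp516, a zinc finger factor gene, rose by 1.64 and 1.68. At a higher level, Vat1, named for a vesicle protein, stood at 122, 134, 90.8 and 104 CPM against 26.99, 37.3, 38.6 and 37.8 CPM (1.68, SE 0.147, adjusted p = 3.90e-06), and the cathepsin L gene Ctsl, a lysosomal protease, at 18.3 ± 4.29 CPM against 5.47 ± 0.300 CPM (SD, n = 4). Itm2a, a membrane protein gene of activated T cells, was among the genes that gained most CPM, at 311 ± 14.6 CPM in WT acetate and 193 ± 17.5 CPM in WT untreated libraries.

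The steepest fall by the same rule was that of Myh11, which encodes smooth muscle myosin heavy chain, at 0.910, 0.260, 0.914 and 0.634 CPM in WT acetate against 12.1, 6.48, 4.67 and 5.64 CPM in WT untreated libraries (−3.40, SE 0.350, adjusted p = 9.02e-06). Vim, the vimentin intermediate filament gene, had the smallest adjusted p of the genes described here. It stood at 494, 523, 519 and 508 CPM with acetate and at 1159.5, 1047, 1076 and 999 CPM without, a fall of 1.07 on the log2 scale (SE 0.0653, adjusted p = 2.63e-08), and the groups were separated by a gap much wider than either group's spread. The mitochondrial creatine kinase gene Ckmt1, the membrane protein gene Gap43 of growing axons and Robo3, a guidance receptor gene, fell by 2.14, 1.98 and 1.78. Tmem176a and Tmem176b, neighbouring membrane protein genes known to be expressed in cells that make IL-17, fell by 1.63 and 1.30. Sulf2 (a heparan sulfatase), Mov10 (an RNA helicase) and Zfp750 (a zinc finger factor of epidermis) fell by 1.18, 1.11 and 1.53. Among abundant transcripts, the chromatin protein genes Hmgn2 and Hmgb2 were at 209.6 ± 43.7 and 402 ± 35.96 CPM in WT acetate libraries and at 408 ± 14.6 and 585 ± 52.7 CPM in WT untreated libraries (log2 fold changes −0.96 and −0.54), and Shisa5, an endoplasmic reticulum protein gene induced by p53, fell by 0.54. Hmgn2 has near-identical pseudogenes, and its level is uncertain to that extent.

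Some of the genes that handle acetate and acetyl-CoA were called. The E1 alpha gene of PDH, Pdha1, stood at 263, 273, 251 and 250.4 CPM in WT acetate and 234, 250.2, 241 and 263 CPM in WT untreated libraries (0.07, SE 0.0584, adjusted p = 0.488), and the ranges overlapped. Dlat, the E2 subunit gene, rose by 0.20 (adjusted p = 0.0454), but the ranges overlapped and the call was lost without WT acetate 1 or 2 or WT untreated 1, 3 or 4 (adjusted p 0.0866 to 0.166). Pdhb, Dld and Pdhx, which encode E1 beta, E3 and the E3-binding protein, had log2 fold changes of −0.14, 0.04 and −0.13 and were not called, though Pdhb was called lower without WT untreated 1 (adjusted p = 0.0384). Of the PDH regulators, Pdk1, the kinase that inactivates the complex, fell to 71.3 ± 5.26 CPM in WT acetate libraries, against 91.2 ± 3.96 CPM in WT untreated libraries, and Pdpr, a regulator of its phosphatase, fell by 0.34. Of the 13 tested genes of the complex and its regulators, 1 rose and 2 fell, beside 7.89% and 7.55% of all genes.

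Among 15 tested genes for entry, activation and supply of acetate and acetyl-CoA, 0 rose and 3 fell (median log2 fold change 0.0, beside 0.0027 for all genes). List counts of 1 or 2 hinge on single genes and are given as counts only. Acss2 had 22.5, 26.2, 12.4 and 15.5 CPM in WT acetate libraries and 12.6, 21.1, 21.95 and 26.3 CPM in WT untreated libraries, with libraries 1 and 2 above 3 and 4 in the acetate group, and was not called (−0.09, SE 0.253, adjusted p = 0.861). Acss1 stood at 9.62, 9.43, 6.78 and 9.03 CPM against 6.43, 6.73, 5.64 and 6.25 CPM; all 4 acetate values were higher, but its adjusted p of 0.0726 missed the threshold and was 0.0323 without WT acetate 3. The carriers for acetate, lactate and pyruvate Slc16a1 and Slc16a3 and the mitochondrial citrate carrier Slc25a1 had changes of 0.01, −0.12 and −0.12 and were not called. Acly fell to 505 ± 69.2 CPM in WT acetate, against 635 ± 58.3 CPM in WT untreated libraries (−0.33, adjusted p = 0.0200), with overlapping ranges. Its call was lost without WT acetate 3 or 4 or WT untreated 2 (adjusted p 0.0577 to 0.071), which left 1 of the 15 genes called, as did scaling to library totals. The others that fell, Acat2 and Hmgcs1, open the sterol pathway and are described with cholesterol synthesis.

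Several cytokine genes rose. Of 29 tested cytokine genes 11 rose (37.9%, beside 7.89% of all genes) and 3 fell, with a median log2 fold change of 0.31. Il17a stood at 639.5, 588, 312 and 401 CPM in the WT acetate libraries, against 96.4, 199, 123 and 122 CPM in the WT untreated libraries. Every acetate value was above every untreated one, and libraries 1 and 2 were above 3 and 4. The log2 fold change was 1.84 (SE 0.302, adjusted p = 0.00146), which is 3.59-fold. Il17f, whose product pairs with IL-17A, was at 1155, 1146, 696 and 811 CPM against 399, 657, 466 and 497 CPM (0.92, SE 0.224, adjusted p = 0.0139), again highest in acetate libraries 1 and 2, and its call was lost without both of these (adjusted p = 0.193).

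Il2, the growth factor of T cells, stood at 579, 566, 601 and 647 CPM in WT acetate and at 224, 321, 338 and 246 CPM in WT untreated libraries (1.08, SE 0.126, adjusted p = 2.72e-05), an even rise across all 4 libraries. Il3, a growth factor of myeloid progenitors, was at 14.2, 19.7, 5.07 and 8.63 CPM against 2.34, 4.27, 2.73 and 2.03 CPM, and Ifng, the Th1 cytokine gene, at 2.63, 1.99, 4.28 and 3.25 CPM against 0.447, 0.727, 0.705 and 0.744 CPM. Both groups of values were apart in each gene, at log2 fold changes of 2.06 and 2.20, but Ifng stayed a scarce transcript. Tnfsf11, which encodes RANKL, was at 154 ± 19.6 CPM in WT acetate and 93.8 ± 12.00 CPM in WT untreated libraries, and Ebi3, the shared subunit of IL-27 and IL-35, at 19.8 ± 3.46 and 10.4 ± 0.992 CPM.

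The other 4 genes that rose were close to the threshold. The inflammatory cytokine genes Tnf and Lta rose by 0.63 and 0.58 (adjusted p = 0.0382 and 0.0243), with overlapping ranges and the highest values in acetate libraries 3 and 4. Tnf stood at 166, 182, 304 and 294 CPM in WT acetate and 126, 159, 174 and 153 CPM in WT untreated libraries. Lif, a cytokine of the IL-6 family, and Il13, a Th2 cytokine gene, rose by 0.38 and 0.74 (adjusted p = 0.0445 and 0.0371). Each of the 4 lost its call in some of the fits that left out 1 WT library: Tnf without WT acetate 3 or 4 or WT untreated 1, 2 or 4 (adjusted p 0.0729 to 0.12), Lta without WT acetate 3 or 4 or WT untreated 2, 3 or 4 (0.0592 to 0.073), Lif without WT acetate 1, 2 or 4 or WT untreated 3 (0.0531 to 0.111), and Il13 without any 1 library other than WT acetate 3 (0.0516 to 0.159). Without WT acetate 4 the cytokine count was 7 of 29, and with scaling to library totals it was 9.

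Cytokine genes that fell were Areg, an epidermal growth factor family gene, at 2.02, 2.25, 2.57 and 2.69 CPM in WT acetate against 5.50, 6.09, 4.70 and 4.87 CPM in WT untreated libraries, Tnfsf8 (CD30 ligand, −0.48) and Il16 (a CD4 ligand, −0.38). Il21, which sustains Th17 and follicular helper cells, had 259, 178, 247 and 231 CPM with acetate and 272, 272, 271 and 301 CPM without; the ranges did not overlap, but it was not called (−0.29, SE 0.120, adjusted p = 0.120). Il22, a cytokine for epithelial cells, overlapped between the groups (0.31, adjusted p = 0.563). Csf2, the GM-CSF gene, and Il9 had log2 fold changes of 0.99 and −1.62 at adjusted p = 0.0504 and 0.0649, and both were called without WT acetate 3 (0.0127 and 0.0332). Both were also called by DESeq2 on all libraries (adjusted p = 0.0125 and 0.0249), and Csf2 by edgeR with a replicate block (0.0290) or RLE scaling (0.0498). Without WT acetate 1 and 2 neither was called by edgeR (0.497 and 0.361).

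**Figure D2:**
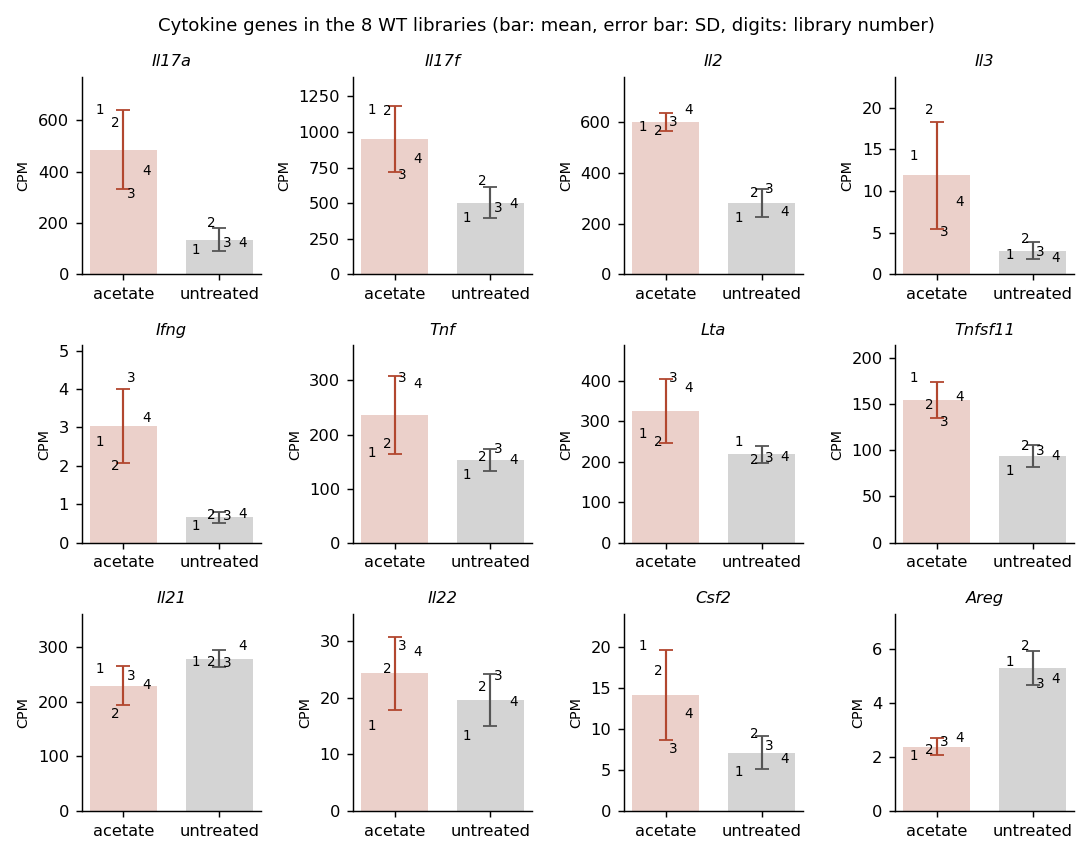
Cytokine genes in the WT libraries. Bars are group means in CPM with the SD as error bar, and the digits mark the value of each library by its number; Il17a, Il2 and Il3 values lie higher in all 4 acetate libraries than in any untreated one, Areg values lie lower, and Tnf, Lta, Il22 and Csf2 values overlap.

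The promoters of Il17a, Il17f and Il2 are shown because these 3 genes gained most CPM among the cytokine genes. The stretches are the 150 bases before the annotated start, in RefSeq annotation of GRCm38.p6, printed 5′ to 3′ on the strand of the gene (Il17a, chr1:20730755-20730904, plus strand; Il17f, chr1:20784271-20784420, minus strand; Il2, chr3:37125955-37126104, minus strand). Capitals mark the letters TATAAA of a TATA box, which places the start of transcription in genes that have one, and TTTGAA, the letters of the cell cycle homology region described with the mitotic genes.
Il17a: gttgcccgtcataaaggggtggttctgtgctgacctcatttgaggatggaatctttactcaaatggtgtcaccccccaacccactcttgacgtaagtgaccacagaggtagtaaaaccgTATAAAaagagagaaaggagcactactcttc
Il17f: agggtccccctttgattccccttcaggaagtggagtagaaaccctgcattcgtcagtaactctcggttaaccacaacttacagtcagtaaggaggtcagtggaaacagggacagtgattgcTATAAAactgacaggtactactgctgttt
Il2: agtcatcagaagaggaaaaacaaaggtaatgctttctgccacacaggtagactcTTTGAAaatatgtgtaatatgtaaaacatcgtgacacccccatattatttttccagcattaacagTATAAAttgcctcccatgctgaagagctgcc
All 3 hold TATAAA, which begins 31 bases before the start in Il17a, 29 in Il17f and 31 in Il2. Over the 250 bases before the start, searched on both strands, 11 of the 24 cytokine genes with a promoter in the reference hold TATAAA (45.8%), beside 6.42% of the 10389 tested genes that matched and 12.97% of all 27025 promoters. The letters TGANTCA, bound by AP-1, a factor family induced by T cell receptor signals, occur in 5 of the 24 (20.8%), beside 4.20% of tested genes and 6.87% of all promoters. These are matches of letters and do not show that a factor binds there. The 5 motifs searched here and with the other promoters printed do not overlap in the stretches shown.

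Genes of the Th17 programme itself were called at close to the shares of all genes. Of 26 tested Th17 lineage genes 2 rose, Il17a and Il17f, and 2 fell, beside 7.89% and 7.55% of all genes. The median log2 fold change was 0.15, and 4 rose without WT acetate 3. Rora, a nuclear receptor gene of the Th17 programme, had a log2 fold change of 0.39 (adjusted p = 0.0935, 0.0231 without WT acetate 3). Il23r, the receptor gene for IL-23, and Stat3, the factor that relays IL-6 and IL-23 signals, had changes of 0.08 and 0.11 and were not called. The 2 that fell were Il6ra, the IL-6 receptor gene (−0.37, adjusted p = 0.00662), and Irf4, a factor needed for Th17 differentiation (−0.20, adjusted p = 0.0443), whose call was lost when any 1 of the 8 WT libraries was left out (0.0504 to 0.137).

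A part of the Th1 and cytotoxic genes rose as well, in cells cultured with blocking antibody to IFNγ. Of 21 tested Th1 lineage genes 9 rose (42.9%, beside 7.89% of all genes) and 1 fell, with a median log2 fold change of 0.54. Tbx21, the gene of the Th1 master factor T-bet, was at 35.9, 37.8, 56.00 and 52.1 CPM in WT acetate libraries and 20.8, 20.5, 28.1 and 21.02 CPM in WT untreated libraries (1.00, SE 0.167, adjusted p = 0.000995), with no overlap and the highest values in acetate libraries 3 and 4. Prf1 (perforin), Nkg7 (a granule protein of killer cells), Fasl (Fas ligand) and Gzmc (granzyme C) rose by 1.36, 1.26, 0.69 and 1.91. Nkg7 was at 36.7, 41.7, 19.4 and 25.9 CPM against 9.21, 15.8, 12.1 and 14.7 CPM, with the highest values in acetate libraries 1 and 2, and without both its adjusted p was 0.156.

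The Th1 and the cytotoxic list share genes. Markers of CD8 and cytotoxic cells rose in 6 of 13 tested members (46.2%, beside 7.89% of all genes) and fell in 0. The 14 of 16 listed markers in the table summed to 237 to 287 CPM in WT acetate and 153 to 186 CPM in WT untreated libraries. Of the 2 chains that define CD8 T cells, Cd8b1 rose, at 13.01 ± 2.41 CPM in WT acetate and 9.09 ± 0.655 CPM in WT untreated libraries (SD, n = 4; log2 fold change 0.52, adjusted p = 0.0219 by edgeR), and Cd8a was not called, at 1.81 ± 0.631 and 1.09 ± 0.450 CPM (0.73, adjusted p = 0.130). Whether such cells contribute to the rise of granule genes was not tested.

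Chemokine genes and receptors rose in 6 of 21 tested members (28.6%, beside 7.89% of all genes) and fell in 0. Ccl3, a chemoattractant for inflammatory cells, had 90.6, 90.2, 72.2 and 102 CPM in WT acetate libraries, against 30.9, 34.6, 21.8 and 18.2 CPM in WT untreated libraries (1.75, SE 0.251, adjusted p = 0.000540), and its neighbour Ccl4 was at 99.8 ± 13.3 CPM against 46.6 ± 9.08 CPM. The receptor genes Cxcr5, Ccr8 and Ccr1 rose by 1.56, 0.62 and 1.30. Cxcr5, which guides T cells into B cell follicles, stood at 25.97, 24.4, 22.8 and 20.95 CPM against 5.40, 8.88, 9.35 and 8.15 CPM. With it rose Bcl6, the factor that defines follicular helper T cells, at 29.5, 28.8, 32.7 and 28.9 CPM in WT acetate and 16.3, 16.7, 18.7 and 15.9 CPM in WT untreated libraries (0.83, adjusted p = 1.11e-05), and Cd40lg, the CD40 ligand gene (0.40). In the follicular helper list as a whole 4 of 13 rose (30.8%) and 0 fell.

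Regulatory T cell genes and the TNF superfamily moved in both directions. Of 18 regulatory T cell genes 2 rose and 4 fell (22.2%, beside 7.55% of all genes). Nrp1, the neuropilin receptor gene, was at 6.66, 6.12, 7.11 and 7.17 CPM in WT acetate and 20.5, 13.2, 12.3 and 14.3 CPM in WT untreated libraries (−1.15, adjusted p = 2.45e-05). Ikzf4, which encodes the factor Eos, and Capg, an actin-capping protein gene, fell by 0.54 and 0.40. Tigit, an inhibitory receptor gene, rose by 0.98, at 40.9, 41.3, 19.8 and 27.1 CPM in WT acetate and 11.9, 20.5, 15.6 and 17.6 CPM in WT untreated libraries. Its ranges overlapped, and acetate libraries 1 and 2 were the highest. Its call was lost without both of these (edgeR adjusted p = 0.154) and in the fit of the WT libraries alone (0.0505). The fourth that fell was Il2ra, the IL-2 receptor alpha gene, at 1431 ± 113 CPM against 1714 ± 88.97 CPM (−0.26, adjusted p = 0.0292), and its call was lost without WT acetate 2, 3 or 4 or WT untreated 1, 2 or 4 (0.0539 to 0.0833).

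In the TNF superfamily 9 of 25 tested genes rose (36.0%, beside 7.89% of all genes) and 3 fell (12.0%, beside 7.55%). Without WT untreated 4, 5 rose, and without WT acetate 3, 5 fell. Cd70, the ligand gene for CD27, was at 6.21, 8.97, 6.31 and 7.64 CPM with acetate against 2.03, 2.88, 3.91 and 1.86 CPM without (1.44, SE 0.266, adjusted p = 0.00190). In contrast Tnfsf4, which encodes OX40 ligand, was at 9.52, 15.2, 12.7 and 12.7 CPM against 24.6, 34.2, 35.6 and 29.4 CPM (−1.30, SE 0.128, adjusted p = 4.76e-06), and Tnfrsf25, a death domain receptor gene, fell by 0.43. Neither gene's groups overlapped. Tnfrsf9 (4-1BB), a receptor gene of activated T cells, rose by 0.49.

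Genes induced by T cell activation rose in 8 of 29 members (27.6%, beside 7.89% of all genes) and fell in 3 (10.3%, beside 7.55%). The number that rose was 5 without WT acetate 4 or without WT acetate 1 and 2, and 4 without WT untreated 1 or 4. The number that fell was 1 without WT acetate 2, 3 or 4 or WT untreated 1, 2 or 4. Rel, the NF-κB family member that drives Il2, was at 272, 273, 239 and 266 CPM in WT acetate and 140.3, 177, 177 and 166 CPM in WT untreated libraries (0.67, adjusted p = 5.95e-05). The early response genes Ier3 and Dusp5, of which Dusp5 encodes a phosphatase that damps ERK signalling, rose by 0.88 and 0.56. Further ERK and MAP kinase regulators that rose were Dusp3 (1.02) and Spry4 (1.76), in a list of cytokine and MAP kinase feedback genes in which 3 of 25 rose (5 without WT acetate 2, 6 without WT acetate 3, 7 without WT acetate 3 and 4) and 1 fell. Of 24 genes of the T cell receptor, its co-receptors and proximal signalling 0 rose and 7 fell (29.2%). Their median log2 fold change was −0.12. Cd2, an adhesion receptor gene, and Prkcq, the kinase that links the receptor to NF-κB, fell by 0.27 and 0.22. Both calls were narrow, with adjusted p = 0.0526 for Cd2 without WT untreated 4 and 0.0613 for Prkcq without WT untreated 1. The list count was 3 without WT acetate 1, 2 or 4 or WT untreated 1 or 2, and 4 without WT untreated 3 or 4. It was 1 without WT acetate 1 and 2, and 0 with scaling to library totals.

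Cytokine receptor genes rose in 2 of 31 and fell in 5 (16.1%, beside 7.55% of all genes). The number that fell was 2 without WT acetate 4, 3 without WT acetate 3 or WT untreated 1 or 4, and 2 with scaling to library totals. Il10ra, the IL-10 receptor gene, and Tgfbr2, the TGFβ receptor gene, rose by 0.58 and 0.36, and Il27ra, the IL-27 receptor gene, fell by 0.40. Among 25 TGFβ pathway genes 4 rose and 1 fell. Ltbp3 and Ltbp4, which encode proteins that hold latent TGFβ, rose by 2.14 and 1.39 at low levels, with 2.89, 2.08, 1.62 and 1.66 CPM of Ltbp3 in WT acetate and 0.172, 0.454, 0.588 and 0.642 CPM in WT untreated libraries.

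**Figure D3:**
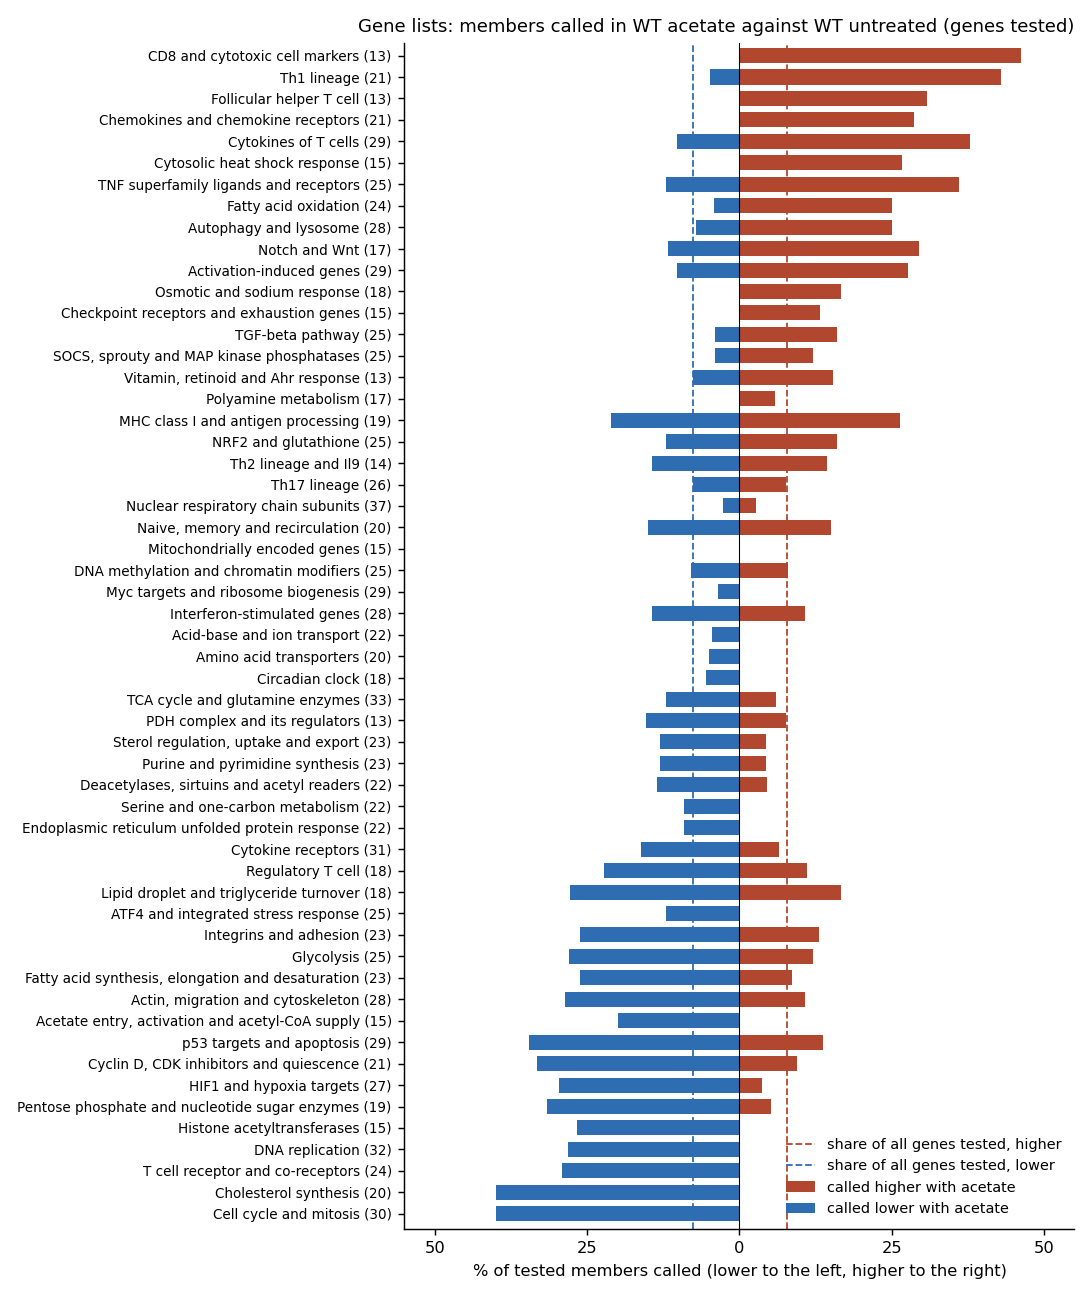
Share of each gene list that was called in WT acetate against WT untreated libraries. Bars show the percentage of tested members called higher (right, red) and lower (left, blue), numbers in brackets are the members tested, lists with at least 13 are drawn, and the dashed lines mark the shares among all genes tested (7.89% higher, 7.55% lower); CD8 and cytotoxic cell markers, Th1 genes and cytokines extend furthest to the right and cholesterol synthesis and mitosis furthest to the left.

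A part of the cholesterol synthesis genes fell. Of 20 tested members 0 rose and 8 fell (40.0%, beside 7.55% of all genes), with a median log2 fold change of −0.26 and all 20 between −0.62 and −0.08. Acat2, the first enzyme named above, was at 96.8, 113, 72.7 and 83.4 CPM in WT acetate and 114, 135, 135 and 138 CPM in WT untreated libraries, with no overlap (−0.52, SE 0.101, adjusted p = 0.00216). Idi1 and Sc5d, which encode the isopentenyl isomerase and a desaturase near the end of the pathway, fell by 0.42 and 0.37. Sc5d showed the narrowest spread, with 84.1, 89.4, 85.5 and 87.2 CPM against 108, 109.9, 114 and 116 CPM.

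Hmgcs1, HMG-CoA synthase, had 390.4, 459, 283 and 323 CPM in WT acetate and 385, 523, 510.0 and 523 CPM in WT untreated libraries. The ranges overlapped and the fall of 0.42 (adjusted p = 0.0441) was lost without WT acetate 1, 3 or 4 or WT untreated 2, 3 or 4 (0.0655 to 0.117). The lowest values of Acat2 and Hmgcs1 were those of acetate libraries 3 and 4. Leaving out acetate libraries 1 and 2 gave 16 of 20 lower, leaving out 3 and 4 gave 4, and leaving out 1 library gave 5 (without WT acetate 1 or 4 or WT untreated 2 or 3) to 13 (without WT acetate 2). Scaling to library totals gave 4. Insig1, which restrains the pathway when sterols are plentiful, fell by 0.42. Across the 23 genes of sterol regulation, uptake and export 1 rose and 3 fell.

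The Hmgcs1 promoter is shown as one of the sterol pathway. Its 150 bases before the start (GRCm38.p6, RefSeq, chr13:119690201-119690350, plus strand) are printed 5′ to 3′ on the gene's strand, with capitals for TCACNCCAC, the core of a sterol regulatory element to which SREBP binds, and for CCAAT, the letters of the box bound by NF-Y, which here lies on the opposite strand and so reads ATTGG.
Hmgcs1: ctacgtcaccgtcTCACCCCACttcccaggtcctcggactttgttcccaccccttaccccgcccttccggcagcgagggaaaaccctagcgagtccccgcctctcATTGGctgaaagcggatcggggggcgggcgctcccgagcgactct
Within 250 bases before the start, 13 of the 15 cholesterol synthesis genes with a promoter in the reference hold CCAAT on either strand (86.7%), beside 36.7% of tested genes and 34.5% of all promoters. TCACNCCAC occurs in 1 of the 15, the Hmgcs1 promoter printed here, beside 0.89% of tested genes and 1.04% of all promoters. In this the stretch shown is not typical of the list. The absence of these letters says nothing about variant elements.

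Fatty acid genes were called in both directions. Of 23 genes of fatty acid synthesis, elongation and desaturation 2 rose (1 without any 1 library other than WT acetate 3) and 6 fell (3 without WT untreated 3, and 3 with scaling to library totals), with a median log2 fold change of −0.06. Fasn, fatty acid synthase, stood at 288, 329.8, 379 and 378 CPM in WT acetate and 476, 516, 528 and 416 CPM in WT untreated libraries (−0.49, adjusted p = 0.00207), here with acetate libraries 1 and 2 lowest. The desaturase gene Fads1 and the acyl-CoA synthetase gene Acsl5 fell by 0.36 and 0.37. Acsl5 had 199.7, 195, 202 and 201 CPM in WT acetate and 274, 252, 255 and 252 CPM in WT untreated libraries, 2 narrow ranges far apart. Of 24 fatty acid oxidation genes 6 rose and 1 fell, with a median of 0.06: Cpt1a, the carnitine acyltransferase that admits long-chain fatty acids to mitochondria, and Acadvl, the very-long-chain acyl-CoA dehydrogenase gene, rose by 0.42 and 0.33, while Cpt1c, a brain form with little known enzyme activity, fell by 1.92 at a low level. Without acetate libraries 1 and 2 the number that rose was 2. The lists were not tested against each other.

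Single genes of lipid storage and handling were called in both directions. Plin2, which coats lipid droplets, was at 27.5, 26.3, 19.4 and 21.8 CPM in WT acetate libraries and 13.03, 12.8, 13.2 and 14.3 CPM in WT untreated libraries (0.83, SE 0.149, adjusted p = 0.00112). Lpin2, a phosphatidate phosphatase gene, and Lipa, the lysosomal acid lipase gene, rose by 0.66 and 0.44. Fabp5, the fatty acid binding protein gene of T cells, had 136, 137, 136 and 141 CPM against 219.6, 208, 204 and 221 CPM (−0.63, adjusted p = 6.73e-06), with all acetate values close together and far from the untreated ones. In the whole list of 18 genes 3 rose and 5 fell (1 without WT acetate 1, 2 without WT acetate 4 or WT untreated 2, 3 or 4, and 3 without WT acetate 2 or WT untreated 1). With scaling to library totals, as without WT acetate 1 and 2, 2 fell.

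A part of the glycolysis genes fell. Of 25 tested 7 fell (28.0%, 4 without WT acetate 1 or WT untreated 2, and 4 with scaling to library totals) and 3 rose, with a median log2 fold change of −0.09. Without WT acetate 1 and 2, 4 fell, and without 3 and 4, 3 fell and 5 rose. Pfkl, liver-type phosphofructokinase, had 109, 122, 117 and 118 CPM in WT acetate and 191, 208, 202 and 174 CPM in WT untreated libraries (−0.74, SE 0.0682, adjusted p = 1.93e-06). The glucose transporter gene Slc2a1 and the triose phosphate isomerase gene Tpi1 fell by 0.43 and 0.46. Pgk1, phosphoglycerate kinase, and Gapdh, which has many pseudogenes and is uncertain to that extent, fell by 0.29 and 0.32; the Gapdh call (adjusted p = 0.0267) was lost without WT acetate 1 or 4 or WT untreated 1, 2 or 3 (0.0514 to 0.0932). Eno3, the muscle enolase gene, rose instead, at 23.6, 24.99, 20.1 and 23.1 CPM against 9.90, 12.1, 15.3 and 15.2 CPM (0.81, adjusted p = 0.000152).

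The hypoxia targets overlap with glycolysis, and 8 of 27 fell (29.6%, beside 7.55% of all genes) while 1 rose. The number that fell was 5 with scaling to library totals or without WT acetate 1 and 2, and 4 without WT acetate 3 and 4 (3 then rose). Kdm3a, a histone demethylase gene induced by HIF-1, was at 44.99, 45.01, 42.8 and 47.3 CPM in WT acetate and 65.9, 60.98, 61.5 and 61.3 CPM in WT untreated libraries, and Bnip3l, a mitophagy receptor gene, fell by 0.40. Hif1a itself, at 881, 814, 504 and 628 CPM against 549, 717, 627 and 748 CPM, was high in acetate libraries 1 and 2 and overlapped between the groups (0.10, adjusted p = 0.732). In the pentose phosphate and nucleotide sugar list 1 of 19 rose, Taldo1 (transaldolase, 0.27), and 6 fell, among them Pgm1 (phosphoglucomutase, −0.45). That count was 3 without WT acetate 1, 3 or 4, 2 without WT untreated 2 or 3, and 1 with scaling to library totals. In the 33 tested genes of the tricarboxylic acid cycle and glutamine use, 2 rose (4 without WT acetate 3, 7 without WT acetate 3 and 4) and 4 fell (2 with scaling to library totals). Pcx, pyruvate carboxylase, fell by 0.57, and Suclg1, a succinyl-CoA ligase subunit gene, rose by 0.29. Of 37 nuclear respiratory chain genes 1 rose and 1 fell, and of 15 mitochondrially encoded genes 0 were called in either direction by edgeR.

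A part of the cell division genes fell by small amounts. Of 30 tested mitosis genes 0 rose and 12 fell (40.0%), with a median log2 fold change of −0.17, and of 32 replication genes 0 rose and 9 fell (28.1%), with a median of −0.14. Cdc20, which activates the anaphase-promoting complex, was at 80.9, 86.01, 98.5 and 90.1 CPM in WT acetate and 144, 128, 127 and 116 CPM in WT untreated libraries (−0.53, SE 0.0897, adjusted p = 0.000579). Ccnb2 (cyclin B2), Nusap1 (a spindle protein) and Foxm1 (the factor that drives mitotic genes) fell by 0.34, 0.38 and 0.31. Ccnb2 had 71.8, 77.3, 67.8 and 71.1 CPM against 92.1, 92.2, 84.5 and 95.8 CPM, with no overlap. Of the replication genes, Lig1 (DNA ligase), Pole (polymerase epsilon) and Gins1 (part of the replicative helicase) fell by 0.37, 0.38 and 0.35. Without acetate libraries 1 and 2 the counts were 6 for mitosis and 3 for replication, without libraries 3 and 4 they were 10 and 16, and the replication count was 5 without WT acetate 1. With scaling to library totals they were 8 and 5.

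Some regulators of the G1 phase also fell. Among 21 cyclin D, CDK inhibitor and quiescence genes 2 rose and 7 fell (3 without WT untreated 2, 4 without WT acetate 1, 2 or 4 or WT untreated 3, and 4 with scaling to library totals). Ccnd3, cyclin D3, stood at 196, 213, 255 and 254 CPM in WT acetate and 329.8, 321, 326 and 316 CPM in WT untreated libraries (−0.50, adjusted p = 0.000668), with acetate libraries 1 and 2 lowest. Its kinase partner gene Cdk4 and the inhibitor gene Cdkn2c fell by 0.34 and 0.45. Of 29 genes of p53 response and apoptosis 10 fell (34.5%, 6 without WT acetate 1 or 4, 5 without WT acetate 1 and 2) and 4 rose (2 without WT untreated 1). Ccng1, a p53 target, fell by 0.45 and Eda2r, a receptor gene induced by p53, by 1.23, whereas the pro-apoptotic BH3 genes Bid and Bik rose by 0.49 and 0.79.

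Promoters of Cdc20 and Ccnb2 are shown as examples of mitotic genes that fell. In each, the 150 bases before the RefSeq start in GRCm38.p6 (Cdc20, chr4:118437344-118437493, minus strand; Ccnb2, chr9:70421555-70421704, minus strand) are printed 5′ to 3′ on the gene's strand, with CCAAT and TTTGAA in capitals. TTTGAA is the cell cycle homology region, through which the DREAM complex holds such genes down in resting cells.
Cdc20: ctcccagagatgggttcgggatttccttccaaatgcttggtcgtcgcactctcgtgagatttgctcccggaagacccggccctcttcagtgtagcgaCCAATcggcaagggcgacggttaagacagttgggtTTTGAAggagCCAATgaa
Ccnb2: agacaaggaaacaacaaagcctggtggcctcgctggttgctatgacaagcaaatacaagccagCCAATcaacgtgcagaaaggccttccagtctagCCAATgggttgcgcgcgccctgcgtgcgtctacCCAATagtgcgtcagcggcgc
Cdc20 holds CCAAT at 53 and 8 bases before the start (the first base of each) and TTTGAA at 18. Ccnb2 holds CCAAT 3 times, at 87, 54 and 21 bases. Over the 250 bases before the start and both strands, CCAAT occurs in 20 of the 24 mitosis genes with a promoter in the reference (83.3%, beside 36.7% of tested genes and 34.5% of all promoters) and TTTGAA in 9 of 24 (37.5%, beside 1143 of 10389 tested genes and 16.27% of all promoters). These shares describe the lists and not the genes that fell within them.

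**Figure D4:**
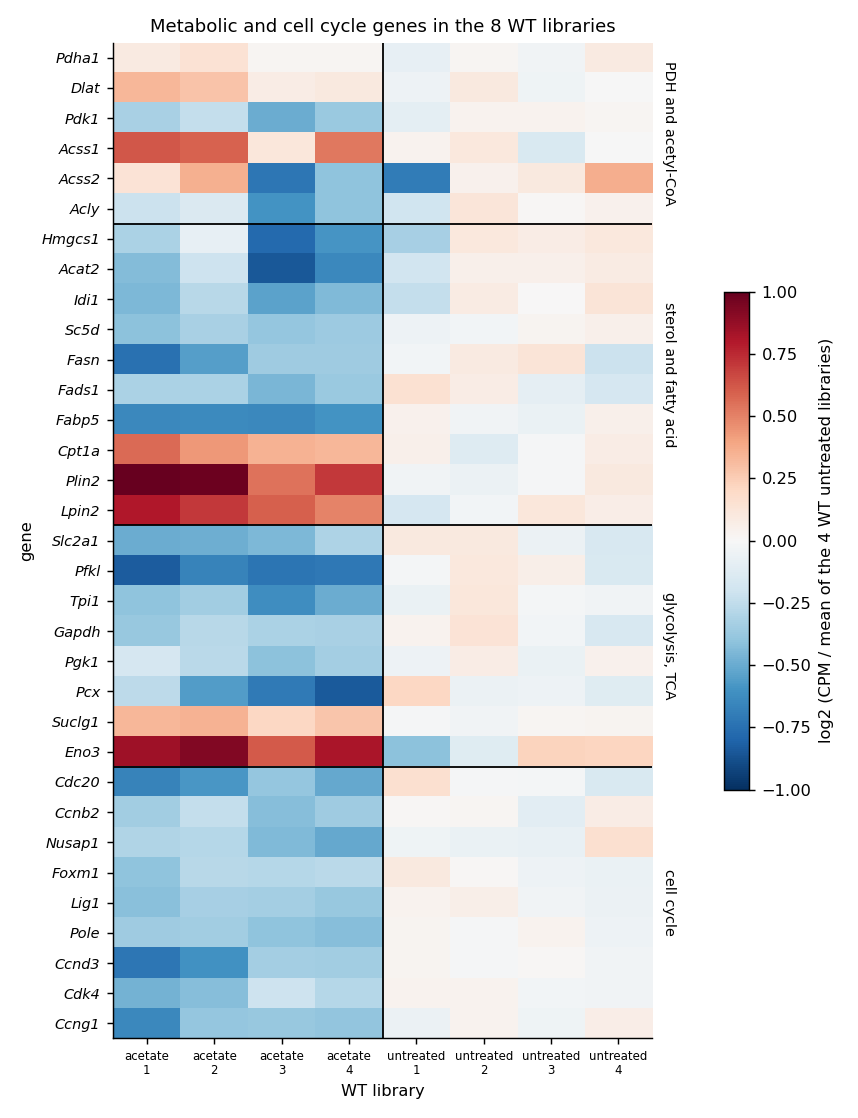
Metabolic and cell cycle genes in each WT library. Colour gives log2 of a library's CPM over the mean of the 4 WT untreated libraries (red higher, blue lower; the scale ends at −1 and 1), with the 4 acetate libraries left of the 4 untreated ones; Fabp5, Pfkl and the mitotic genes are blue in all 4 acetate libraries, Plin2, Lpin2, Cpt1a and Eno3 are red, and Acss2 changes sign between acetate libraries 1 and 2 and libraries 3 and 4.

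Some acetylation and chromatin genes were called. Of 15 histone acetyltransferase genes 0 rose and 4 fell (26.7%, beside 7.55% of all genes), with a median of −0.18. The number that fell was 1 without WT acetate 1 or WT untreated 1, 2 without WT acetate 2 or WT untreated 2 or 3, and 1 with scaling to library totals. Kat2b, also named PCAF, had 17.6, 15.8, 19.9 and 17.2 CPM in WT acetate and 27.3, 23.96, 25.6 and 26.2 CPM in WT untreated libraries (−0.55, adjusted p = 0.000668). Among 22 deacetylases, sirtuins and acetyl readers 1 rose and 3 fell (13.6%), among them Sirt1 and Hdac4 (−0.49 and −0.31). Sirt1, which removes acetyl groups with NAD, was at 26.5, 23.3, 29.5 and 24.7 CPM against 38.2, 31.9, 38.2 and 37.4 CPM. In the linker histone gene H1f0, linked to resting and differentiated cells, values were 105, 77.9, 61.3 and 76.1 CPM with acetate and 53.4, 47.2, 47.7 and 52.2 CPM without (0.67, adjusted p = 0.00145), and H2afx, the variant marked at DNA breaks, fell by 0.34. Of 11 such histone genes 1 rose and 2 fell (1 without WT acetate 1 or 2 or WT untreated 1).

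Interferon-stimulated genes were called in both directions. Of 28 tested interferon-stimulated genes 4 fell (14.3%, beside 7.55% of all genes) and 3 rose (10.7%, beside 7.89%). The number that rose was 1 without WT acetate 1, and 0 without WT acetate 2 or WT untreated 1 or 2. Gbp2, a guanylate-binding protein gene, had 75.8, 89.6, 119.8 and 103 CPM in WT acetate and 239.8, 222, 216 and 208 CPM in WT untreated libraries (−1.19, SE 0.149, adjusted p = 0.000108). Gbp5 and Gbp3, of the same family of GTPases against intracellular pathogens, fell by 0.91 and 0.45; reads shared within the family make single members uncertain. Genes of MHC class I and antigen processing rose in 5 of 19 members (26.3%) and fell in 4 (21.1%). The nonclassical genes H2-Q6 and H2-Q7, near-identical copies whose separate values are uncertain, rose by 1.17 and 1.07, and Tapbp, which encodes the peptide loading factor tapasin, fell by 0.65. The peptide transporter genes Tap1 and Tap2 and the peptide trimming enzyme gene Erap1, chosen after their values were seen, were the others that fell (−0.28, −0.25 and −0.35). Without acetate libraries 1 and 2, 2 rose and 2 fell, and with scaling to library totals 5 rose and 2 fell.

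Genes of the actin and cell migration list were lower in 8 of 28 members (28.6%, beside 7.55% of all genes) and higher in 3. The number lower was 5 without WT acetate 1 or 2 or WT untreated 1, 2 without WT acetate 1 and 2, and 5 with scaling to library totals. Besides Vim, Myo1f, a myosin of leukocytes, stood at 11.1, 11.8, 12.7 and 14.7 CPM in WT acetate and 23.97, 21.02, 22.6 and 25.3 CPM in WT untreated libraries (−0.88, adjusted p = 1.37e-05). Lgals3, the galectin-3 gene, rose to 227, 227, 238 and 231 CPM in WT acetate libraries, against 134, 136, 135 and 123 CPM in WT untreated libraries (0.81, adjusted p = 0.000145), and Itga5, the fibronectin receptor subunit, rose by 0.59 with values of 20.2, 21.1, 20.8 and 20.3 CPM against 14.03, 13.3, 14.1 and 13.5 CPM. Of the naive and recirculation list 3 of 20 rose and 3 fell. Lef1, a factor of naive T cells, and Treml2, a T cell surface receptor gene, fell by 0.38 and 0.50, and Ly6c1, which is nearly identical to its neighbour and uncertain for that reason, rose by 1.62. Of 23 integrin and adhesion genes 3 rose (1 without WT acetate 1, 2 or 4 or WT untreated 1 or 2) and 6 fell (3 without WT untreated 4, and 3 with scaling to library totals).

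Notch and Wnt genes rose in 5 of 17 members (29.4%, beside 7.89% of all genes) and fell in 2 (1 without WT acetate 1, 3 or 4 or WT untreated 2, 3 or 4). Nrarp, a feedback target of Notch, stood at 7.09, 7.82, 8.55 and 7.25 CPM in WT acetate and 4.50, 2.48, 3.29 and 2.81 CPM in WT untreated libraries (1.23, adjusted p = 6.03e-05). Dtx1, another Notch target, and Wnt10b, a Wnt ligand gene, rose by 1.17 and 0.99. Of 28 autophagy and lysosome genes 7 rose (2 to 5 when any 1 WT library was left out, lowest without WT acetate 2 or WT untreated 1, and 6 with scaling to library totals) and 2 fell. Ctsz, the cathepsin Z gene, rose by 0.56 and Ulk1, the kinase that starts autophagy, fell by 0.34. Heat shock genes rose in 4 of 15 members (26.7%), among them Bag3, a co-chaperone gene (0.52), and Hspa1b (0.87), which has a near-identical copy. In the osmotic and sodium list, which bears on the sodium given with acetate, 3 of 18 rose (16.7%, beside 7.89% of all genes) and 0 fell. Atp1b1, a sodium pump subunit gene, was at 20.4, 22.2, 19.05 and 17.2 CPM in WT acetate libraries and 11.2, 12.5, 11.6 and 12.8 CPM in WT untreated libraries (0.71, SE 0.118, adjusted p = 0.000523).

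Counts were small in several other lists, though not all lay below the shares of all genes (7.89% rose and 7.55% fell). The counts of genes that rose and fell were 0 and 3 of 25 for the ATF4 response (0 fell without WT acetate 3 or 4 or WT untreated 2 or 3, and 6 rose without WT acetate 3 and 4), 0 and 1 of 20 for amino acid transporters, 0 and 2 of 22 for serine and one-carbon metabolism, 0 and 2 of 22 for the unfolded protein response, 0 and 1 of 22 for acid-base and ion transport, 0 and 1 of 29 for Myc and ribosome biogenesis and 0 and 1 of 18 for the circadian clock. They were 1 and 0 of 17 for polyamine metabolism, 1 and 3 of 23 for purine and pyrimidine synthesis, 2 and 2 of 25 for chromatin modifiers, 2 and 2 of 14 for Th2 genes, 2 and 0 of 15 for checkpoint receptors, 2 and 1 of 13 for retinoid and Ahr genes and 4 and 3 of 25 for NRF2 and glutathione. Counts this small hinge on single genes near the threshold.

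The effect in WT cells was then set against that in KO cells, to ask which responses differed between the genotypes. In KO cells 6550 genes were called, and 1816 genes were called in the same direction in both genotypes, which is 78.4% of the WT calls and 27.7% of the KO calls. A further 30 genes were called in opposite directions and 469 were called in WT only. The test of the difference, WT effect minus KO effect, called 1785 genes (11.9%). Among genes called in WT it called 493 (21.3%): the WT effect was the smaller of 2 effects of the same sign in 382, the larger in 26 and of opposite sign in 85. Where the genotypes differed in these genes, the WT fold change was mostly the smaller one. Each fold change is relative to the untreated level of its own genotype, and these levels were not always alike, as given for Vim and Vat1 below. Pdha1, which may or may not be the gene targeted, was at 262, 254, 244 and 232 CPM in KO acetate and 232, 235, 223 and 209.6 CPM in KO untreated libraries, and its WT values stand above. When the 4 libraries in which the unnamed gene took more than 3% of counts were left out, the difference was called in 1010 genes.

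A few responses were larger in WT cells or had the other sign there. Cd70 rose in WT cells (log2 fold change 1.44) but had a change of −0.51 in KO cells, at 9.94, 10.4, 10.03 and 9.58 CPM in KO acetate against 7.62, 20.8, 14.2 and 14.2 CPM in KO untreated libraries, and the difference of 1.95 (SE 0.362) had an adjusted p of 0.00307. Wnt10b rose by 0.99 in WT cells and changed by −0.54 in KO cells (difference 1.53, adjusted p = 0.000758). The sodium pump gene Atp1b1 had changes of 0.71 in WT and 0.00 in KO cells (difference 0.71, adjusted p = 0.00931). For Il2 the difference was 0.62 (WT 1.08, KO 0.47, adjusted p = 0.0295), and it was lost without WT acetate 4 or WT untreated 1 or 4 (0.0501 to 0.0639). Areg fell in WT cells by 1.15 and had a change of −0.05 in KO cells (difference −1.10, adjusted p = 0.00375), and Cd2 fell in WT cells and rose in KO cells (−0.27 and 0.53, adjusted p = 7.17e-05 for the difference).

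More often the same change, measured from each genotype's own untreated level, was smaller in WT cells. Vat1 rose by 1.68 in WT and 3.23 in KO cells (difference −1.55, SE 0.210, adjusted p = 0.000333), and Plin2 by 0.83 and 2.10 (difference −1.26). Dusp3, Spock2 (a proteoglycan gene) and Plaur (the urokinase receptor gene) rose by 1.02, 1.17 and 0.90 in WT cells and by 3.12, 2.99 and 2.57 in KO cells. Rel rose by 0.67 in WT and 1.35 in KO cells. Falls were smaller in WT cells for Vim (−1.07 in WT, −1.67 in KO), Kynu, which encodes kynureninase (−1.57 and −4.49), and Gpr34, a lysophospholipid receptor gene (−0.94 and −2.52). The WT call of Gpr34 was lost without WT acetate 1 or 2 (adjusted p 0.0509 to 0.0523).

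Some genes that did not pass the test in WT cells responded in KO cells. Il23r had a change of 0.08 in WT and rose by 1.64 in KO cells (difference −1.56, adjusted p = 0.000115), Hif1a of 0.10 and 1.16 (difference −1.07), and the lactate carrier gene Slc16a3 of −0.12 and 1.49 (difference −1.61). Il23r and Slc16a3 means were 7.82 and 30.2 CPM in KO untreated libraries, against 27.3 and 119 CPM in WT untreated libraries. With acetate they were 24.4 and 84.97 CPM in KO and 28.8 and 109 CPM in WT libraries. For the IL-17 genes the test of the difference missed the threshold, which does not show that the effects were alike. Il17a rose by 1.84 in WT and 2.66 in KO cells (difference −0.82, SE 0.414, adjusted p = 0.234), and Il17f by 0.92 and 1.42 (difference −0.50, SE 0.314, adjusted p = 0.341). Of the 20 cholesterol synthesis genes, 0 had a called difference by edgeR.

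**Figure D5:**
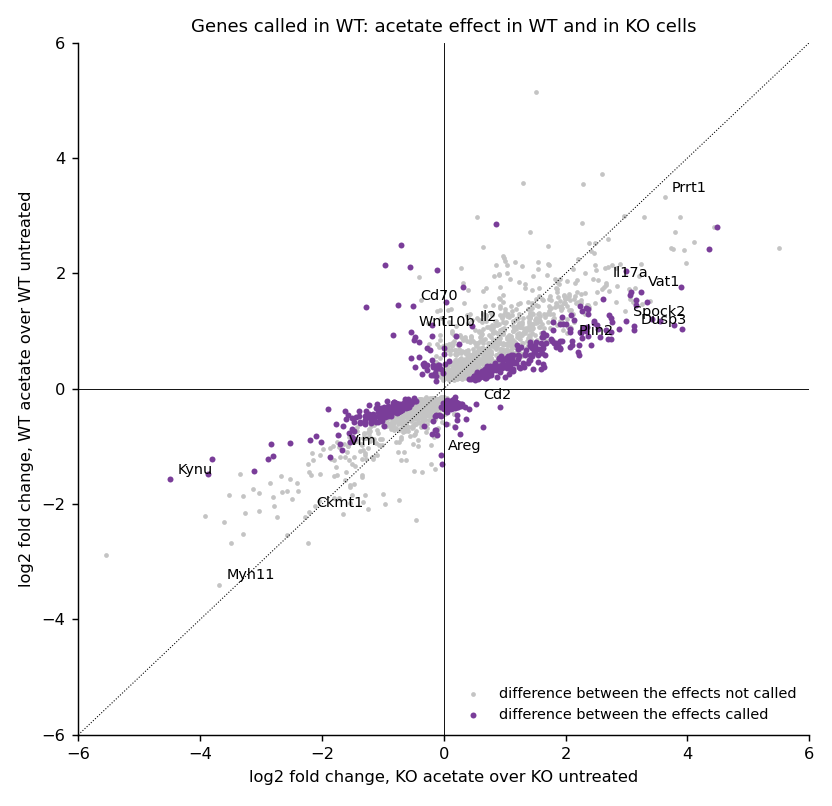
Acetate effect in the 2 genotypes for the 2315 genes called in WT cells. The y axis is the log2 fold change of WT acetate over WT untreated, the x axis that of KO acetate over KO untreated, the dotted line marks equal effects, and purple points are the 493 genes whose effects differed; 382 of the purple points have the smaller effect in WT cells and lie between the dotted line and the x axis.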

How the data were processed

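RNA from the 16 Th17 cultures was made into TruSeq Stranded mRNA libraries, per the labels' protocols. The deposited table holds expected counts (whole-number estimates per gene); the submitters' processing notes name Salmon, DESeq and DESeq2, without versions. The build and annotation behind the counts: not given in the sources used here. In all, 15571 genes were listed, 15221 of them matched a gene name, and every gene had at least 10 counts in at least 3 libraries. WT libraries totalled 24.57 to 33.72 M counts.

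edgeR 4.0.16 (R 4.3.3) was used with TMM scaling, its default filter on low counts (14985 genes kept), 1 quasi-likelihood fit with robust estimation over the 16 libraries in 4 groups of 4, and Benjamini-Hochberg adjustment over all genes. Genes under an adjusted p of 0.05 were called. The standard error is the log2 fold change divided by the square root of F. On simulated counts for the acetate comparison in WT cells (14230 genes, 50 for each fold size), 60% of 1.5-fold and 100% of 2-, 3- and 4-fold changes were called. The changed genes were drawn from those above 5 CPM, and every gene was given the same spread. These shares therefore do not carry over to scarcer or more variable genes.

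The members and lists were chosen with earlier results of these data known. Named genes were taken from the PDH and acetate genes, all cytokine and Th17 genes, the 15 largest called rises and falls without overlap at 5 CPM or more, the 10 largest by CPM, up to 4 genes per list with the smallest adjusted p, and the 8 largest differences between genotypes in each direction. Y-linked genes, Xist, Tsix, unnamed and predicted genes and receptor segments were left out. Cd8a, Cd8b1, Tap1 and Erap1 stand outside this choice, and Cst3, Pdpn and Pecam1 were named as the main parts of marker sums. Counts over the 165 named genes leave out all of these and Tap2. Some results of named genes are not reported here. Promoters are RefSeq sequences of GRCm38.p6. Alternatives were RLE scaling and scaling to library totals, other filters, a replicate block, a term for replicates 1 and 2 against 3 and 4, fits without each WT library, without the 4 in which 1 gene took more than 3% of counts, with the WT libraries alone, and DESeq2 1.42.0. Fits without WT acetate 1 and 2, without WT acetate 3 and 4, and with the WT libraries alone plus the block were added after the data had been seen.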

Additional observations from a re-analysis of the deposited data

Results flagged for a closer look

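In 25 of 330 groups of 4 libraries tested over the named genes, 1 library lay apart from the other 3 by more than the Dixon criterion for 4 values allows, and chance flags about 1 group in 20. WT untreated 1, the library with 5.889% of its counts on 1 gene, was the one apart in 13 of them. It was low for Pdk1 (85.3 CPM), Slc25a1 (95.5), Hmgcs1 (385), Acat2 (114), Vat1 (26.99), Ifng (0.447), Lif (242) and Ly6c1 (0.997), and high for Tmem176b (15.95), Lta (249), Ikzf4 (42.1), Acsl5 (274) and Kdm3a (65.9). WT untreated 2 was low for Sirt1 (31.9 CPM), WT untreated 3 high for Tbx21 (28.1), and WT untreated 4 high for Il21 (301) and Nusap1 (217) and low for Lgals3 (123). Among acetate libraries, WT acetate 1 was low for Foxm1 (78.8 CPM) and Ccng1 (334) and high for H2afx (74.1), WT acetate 2 was high for Pdlim4 (10.99) and Gbp3 (10.2), and WT acetate 3 was high for Bcl6 (32.7) and low for Ccl4 (80.1).

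The text gives the WT effect minus the KO effect for 20 genes, and 18 of these differences were called. The same test called 50 of the 165 named genes (Cd8a, Cd8b1, Tap1, Tap2 and Erap1 are not among these), and the differences of the others are not listed. On the log2 scale the 18 differences were positive for Kynu (2.92), Cd70 (1.95), Gpr34 (1.58), Wnt10b (1.53), Atp1b1 (0.71), Il2 (0.62) and Vim (0.60). They were negative for Dusp3 (−2.10), Spock2 (−1.82), Plaur (−1.66), Slc16a3 (−1.61), Il23r (−1.56), Vat1 (−1.55), Plin2 (−1.26), Areg (−1.10), Hif1a (−1.07), Cd2 (−0.80) and Rel (−0.68). For Kynu, Gpr34 and Vim a positive difference means a smaller fall in WT cells.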

How the results depend on the processing

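Of 148 named genes called in WT cells (Cd8b1, Tap1, Tap2 and Erap1 are not among them), 113 kept their call under every alternative. The other 35 lost it under at least 1, most often (25) without WT acetate 1 and 2 and in 13 without WT acetate 3 and 4, and 0 reversed. Among the 25 were Tigit, Spry4, Ccr8, Tnfrsf9, Dusp5, Il6ra, Il10ra, Tapbp and H2-Q7 (edgeR adjusted p 0.0652 to 0.154). The 2315 calls became 1754 (558 lower) with library totals, 1121 (531 higher, 590 lower) without WT acetate 1 and 2, 1068 (571 and 497) at an adjusted p under 0.01, 450 (349 and 101) with a fold over 2 as well, and 2764 with DESeq2 (2303 shared). Leaving out 1 library gave 1569 to 2370 calls, 813 to 1249 higher and 734 to 1121 lower. For WT effect minus KO effect, library totals gave 442 positive differences, leaving out the 4 libraries with over 3% of counts on 1 gene gave 1010 (464 positive, 546 negative), and leaving out 1 WT library gave 1328 to 1635 (601 to 772 positive, 722 to 879 negative). The Il2 difference lost its call with library totals (adjusted p = 0.0912) and without the 4 libraries (0.137). The cause was not tested.

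Signs turned only in genes not called: Acss2 (−0.28 to 0.07 without 1 library, 0.25 without WT acetate 3 and 4), Slc25a1 (0.08 without these), Slc16a1 (−0.02 to 0.05, and −0.06), Slc16a3 (−0.21 to 0.02, and 0.11), Il23r (−0.01 without the 4 libraries with over 3% on 1 gene), Stat3 (−0.07 without WT acetate 1 and 2) and Hif1a (−0.03 to 0.23 without 1 library, −0.22 without WT acetate 1 and 2). The cause was not tested.

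With the replicate block 2632 genes were called (2256 shared), with the block in the WT libraries alone 1565 (1451 shared), and for the difference 2259. Same-numbered acetate and untreated libraries correlated at −0.018, 0.119, 0.026 and 0.047 in their deviations from the group means, and not every library correlated best with its own number, so the numbers were not taken to pair the samples. Counts limit the scarce genes most: a change that missed the threshold was not detectable at this depth and spread, which does not show its absence.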
